A study of Mus musculus with 18 samples.

Results

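The retina takes up and ferments large amounts of glucose, and 10 genes of glucose uptake, glycolysis and lactate transport were followed here in mouse retinas after light damage. They are Slc2a1, Hk1, Hk2, Pfkfb2, Pkm, Ldha, Ldhb, Slc16a1, Slc16a3 and Bsg, taken by symbol from the 23420 gene symbols of the deposited count tables. All 10 passed the filter on low counts. They were chosen with earlier results of the same mice known, and count as selected on their levels and fold changes in all 3 comparisons, so the values below describe these mice and the p-values are no independent evidence. RNA of whole retinas came from 9 wild-type Balb/cJ mice, an albino strain, in groups of 3. The study used mice of both sexes at 8 to 10 weeks. Naïve mice received neither light nor treatment. Vehicle-treated mice were kept in the dark, had their pupils dilated, were exposed to 15000 lux of white light for 1 h and received DMSO by daily injection into the peritoneum from the day before the light. TD139-treated mice received the same light and daily TD139 at 15 mg/kg, a small-molecule inhibitor of the sugar-binding protein galectin-3, in DMSO. Retinas were taken 4 days after the light. Because naïve mice were also not injected, the light and the injections cannot be told apart in the comparison with vehicle-treated mice. The comparisons ask what light damage did to these transcripts and whether galectin-3 inhibition changed the outcome.

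In glycolysis, glucose is taken up through glucose transporters, phosphorylated by hexokinases and split to pyruvate, which pyruvate kinase forms in the last step. Photoreceptors convert much of their pyruvate to lactate even when oxygen is plentiful, with lactate dehydrogenase A, and export it through monocarboxylate transporters that need the membrane protein basigin to reach the cell surface. Müller glia and the retinal pigment epithelium can take the lactate up and burn it, and lactate dehydrogenase B favours that direction.

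Between 26171887 and 30201517 reads were counted on genes per mouse, and the members had 1038 to 92753 counts in a mouse. Levels are in CPM, counts scaled to a common library size with TMM, a normalization that centres the bulk of the genes. The tissue label held: the 14 rod markers, Gnat1 and Sag among them, summed to 91740 to 107000 CPM in the naïve group, 53790 to 75820 CPM with vehicle and 75570 to 93590 CPM with TD139, and none of them was at 0. Vehicle-treated mouse 2 stood apart, with 7411 CPM of lens genes (8 genes, led by Cryaa) and 517 CPM of markers of the retinal pigment epithelium. Reads outside genes were 21.3 to 22.8% of the reads in TD139-treated mice, above the 19.1 to 19.9% of naïve and the 16.5 to 19.4% of vehicle-treated mice, and their part in the changes with TD139 was not tested. Fold changes of TD139-treated mice followed transcript length. Across 15059 genes, the Spearman correlation of length with the log2 fold change was 0.501 against vehicle-treated and 0.611 against naïve mice, but −0.103 for vehicle-treated against naïve mice. Genes are not independent replicates, so this is given as a description. Values are therefore also given after a correction for transcript length and GC content that was fitted in each mouse.

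Compared per kb of transcript, the genes spanned a wide range of levels in naïve retinas. Pkm, which encodes pyruvate kinase, led with 1264 CPM per kb and ranked 13 among all tested genes with a known length. Ldha followed with 816 (rank 25) and Bsg, the gene of basigin, with 658 (rank 39), and the mice of these genes overlapped. Hk1 stood at 301 CPM per kb, apart from Bsg above and from Ldhb at 150 below. Ldhb overlapped with Pfkfb2 at 133. Slc2a1 at 86.0, Hk2 at 66.8 and Slc16a1 at 57.3 CPM per kb each overlapped with their neighbour in this order, and Slc16a3 was last with 21.3. In vehicle-treated mice Bsg (716 CPM per kb) lay above Ldha (547) and Slc16a1 (40.6) above Hk2 (35.3), without overlap. In TD139-treated mice Pfkfb2 moved up to the fifth place with 172 CPM per kb, where it overlapped with Ldhb (119.5).

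The promoters of 6 members are shown because 5 of them belong to genes whose vehicle-treated mice all lay below all naïve mice, and the sixth, of Ldhb, is that of the partner isoenzyme of Ldha. Each window runs from 250 bases before to 50 bases after the annotated start in the RefSeq promoter set for GRCm38.p6, 5′ to 3′ on the strand of the gene. Capitals mark ACGTG on either strand, the core of the element bound by hypoxia-inducible factors. Where CACGTG occurs, ACGTG is counted on both strands and these matches overlap.
Hk2, chr6:82774405-82774704, minus strand: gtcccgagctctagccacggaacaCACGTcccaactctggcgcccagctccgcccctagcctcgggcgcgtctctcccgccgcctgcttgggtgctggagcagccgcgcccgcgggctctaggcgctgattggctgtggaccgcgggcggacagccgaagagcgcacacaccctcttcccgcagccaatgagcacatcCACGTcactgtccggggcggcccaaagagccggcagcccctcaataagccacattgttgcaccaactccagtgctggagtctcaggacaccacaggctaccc
Pfkfb2, chr1:130715772-130716071, minus strand: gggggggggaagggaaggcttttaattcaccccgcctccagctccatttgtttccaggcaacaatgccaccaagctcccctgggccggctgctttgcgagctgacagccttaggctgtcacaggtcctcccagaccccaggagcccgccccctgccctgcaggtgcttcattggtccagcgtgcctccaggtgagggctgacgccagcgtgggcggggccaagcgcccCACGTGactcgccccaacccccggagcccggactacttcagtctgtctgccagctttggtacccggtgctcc
Ldha, chr7:46845554-46845853, plus strand: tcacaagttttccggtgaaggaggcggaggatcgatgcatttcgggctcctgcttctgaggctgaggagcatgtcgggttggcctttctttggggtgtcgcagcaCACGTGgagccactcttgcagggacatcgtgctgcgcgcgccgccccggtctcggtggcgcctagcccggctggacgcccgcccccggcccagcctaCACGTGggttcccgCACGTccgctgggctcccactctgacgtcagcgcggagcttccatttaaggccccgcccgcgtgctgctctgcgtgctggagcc
Ldhb, chr6:142507908-142508207, minus strand: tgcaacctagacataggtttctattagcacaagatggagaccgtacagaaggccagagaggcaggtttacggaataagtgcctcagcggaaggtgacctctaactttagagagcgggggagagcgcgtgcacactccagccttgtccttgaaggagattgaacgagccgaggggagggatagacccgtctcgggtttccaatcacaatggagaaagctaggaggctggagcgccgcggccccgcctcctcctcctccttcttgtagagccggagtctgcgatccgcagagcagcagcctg
Slc16a1, chr3:104638414-104638713, plus strand: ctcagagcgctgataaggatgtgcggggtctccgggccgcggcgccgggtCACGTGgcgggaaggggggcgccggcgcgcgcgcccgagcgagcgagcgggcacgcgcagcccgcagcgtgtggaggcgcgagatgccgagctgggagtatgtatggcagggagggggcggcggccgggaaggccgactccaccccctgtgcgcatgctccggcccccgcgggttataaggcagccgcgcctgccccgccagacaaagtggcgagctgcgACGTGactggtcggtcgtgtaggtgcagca
Slc16a3, chr11:120948817-120949116, plus strand: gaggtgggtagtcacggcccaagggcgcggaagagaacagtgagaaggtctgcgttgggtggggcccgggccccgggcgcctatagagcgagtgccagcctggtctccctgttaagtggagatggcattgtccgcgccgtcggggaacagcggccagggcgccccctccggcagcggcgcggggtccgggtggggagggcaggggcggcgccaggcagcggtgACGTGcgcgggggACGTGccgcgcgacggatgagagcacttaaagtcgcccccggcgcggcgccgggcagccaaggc

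Ldha held 5 matches to ACGTG, with CACGTG in 2 of its places, Slc16a1 held 3, and Hk2, Pfkfb2 and Slc16a3 held 2 each. The first listed window of Slc2a1 held 1, and those of Ldhb, Hk1 and Pkm held 0. The second listed windows of Hk1 and Pkm held 2 each. Pkm, the sixth separated gene, is not shown because its first window held 0. Among the first windows of 27025 genes, 19.7% had at least 1 match and 1.8% had 3 or more. TAATCC, the core of the motif of the photoreceptor factor CRX, searched on both strands, was in 0 of the 9 first windows found and in 7.16% of all first windows. The second window of Ldha held 1 match to TAATCC. A match is a stretch of letters and was not tested as a binding site.

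**Figure D1:**
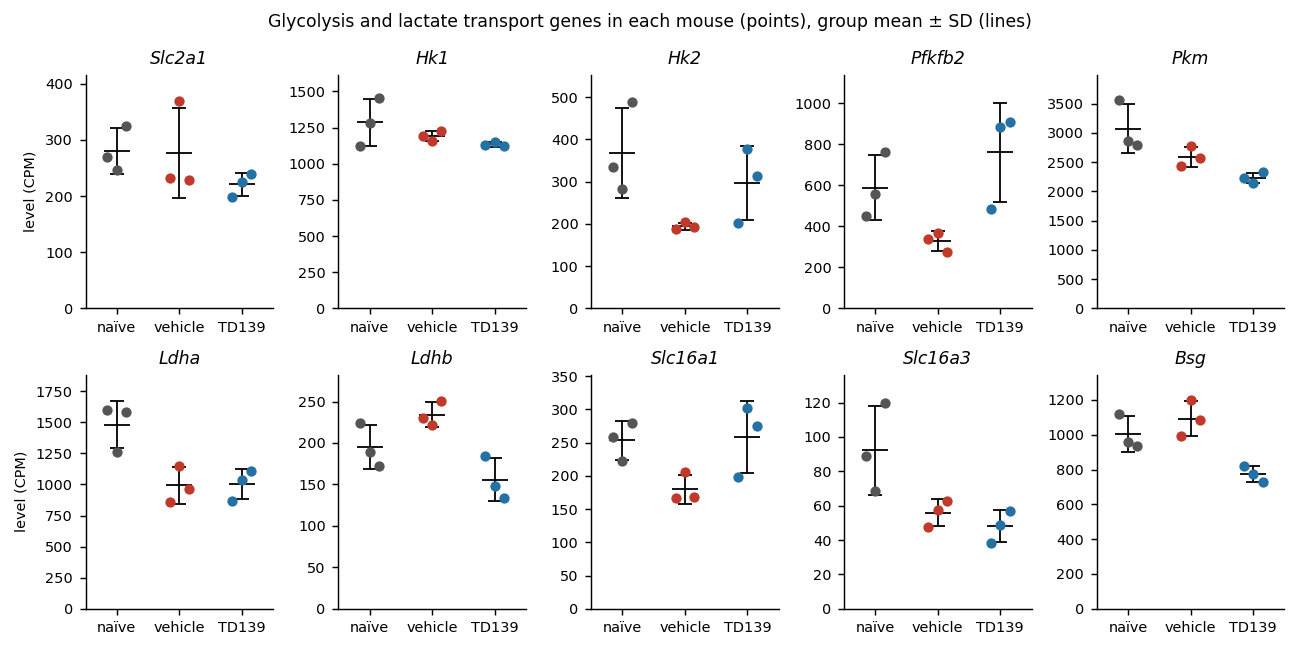
Level of each of the 10 genes in CPM (vertical axes, each from 0) in the 3 naïve, 3 vehicle-treated and 3 TD139-treated mice. Points are mice and lines are the group mean ± SD. Hk2, Pfkfb2, Pkm, Ldha, Slc16a1 and Slc16a3 show all vehicle-treated mice below all naïve mice, and Pfkfb2 shows all TD139-treated mice above all vehicle-treated mice.

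In vehicle-treated retinas, 6 of the 10 genes were lower than in naïve retinas in every mouse, namely Hk2, Pfkfb2, Pkm, Ldha, Slc16a1 and Slc16a3. Of all 15196 genes tested, 16.6% were separated in that direction. Hk2 and Ldha fell at an adjusted p-value under 0.05 in edgeR's quasi-likelihood test, and 0 members rose. In that comparison 7.8% of all genes were called, 2.89% lower and 4.91% higher. The median log2 fold change of the members was −0.37, beside −0.0018 over all genes. No member reached the log2 fold change of 2 that the study used as its cut-off, which 1.24% of all genes passed together with the adjusted p-value, nor did any in the other comparisons (1.65% of all genes for TD139-treated against vehicle-treated and 0.0263% against naïve mice). With length and GC content corrected, all 6 separated genes were called lower, where 19.8% of all genes were called and 13.5% were called lower. Rod markers fell over the same mice, 9 of 14 at an adjusted p-value under 0.05 with a median of −0.59, while 5 of 10 Müller glia markers, 4 of 8 reactive glia genes and 8 of 10 microglia and macrophage markers rose. In whole retinas, fewer cells of a type and less RNA per cell cannot be told apart, and the part of these cell types in the changes of the members was not tested.

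TD139-treated and vehicle-treated mice differed in 4 members. Pfkfb2 and Slc16a1 were higher and Ldhb and Bsg lower with TD139, where 33.4% of all genes were called, 17.2% higher and 16.2% lower. The mice were separated for Pfkfb2 upward and for Hk1, Pkm, Ldhb and Bsg downward, among 26% and 25.4% of all genes. The members had a median log2 fold change of −0.14, beside −0.016 over all genes. Rod markers were higher in 6 of 14 cases, and 4 of 10 Müller glia markers, 7 of 8 reactive glia genes and 9 of 10 microglia markers were lower. With length and GC content corrected, Pfkfb2 was the 1 member still called and 0 were lower, where 21.4% of all genes were called and 13.8% were called higher. Both comparisons share the vehicle-treated mice, so an opposite sign in them is not independent.

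Against naïve mice, TD139-treated mice had lower Pkm, Ldha and Slc16a3, where 5.1% of all genes were called, 2.38% lower and 2.72% higher, and 0 members rose. All TD139-treated mice lay below all naïve mice for Slc2a1, Pkm, Ldha, Slc16a3 and Bsg, as they did for 16.8% of all genes. The member median was −0.33, beside −0.0023 over all genes. With length and GC content corrected, edgeR called 0 genes of the whole table in this comparison, 2128 genes (14%) had an unadjusted p-value under 0.05, and 4 members were among them. With the replicate number as a block it also called 0 genes here, and with only these groups fitted 1 gene of 14787.

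**Figure D2:**
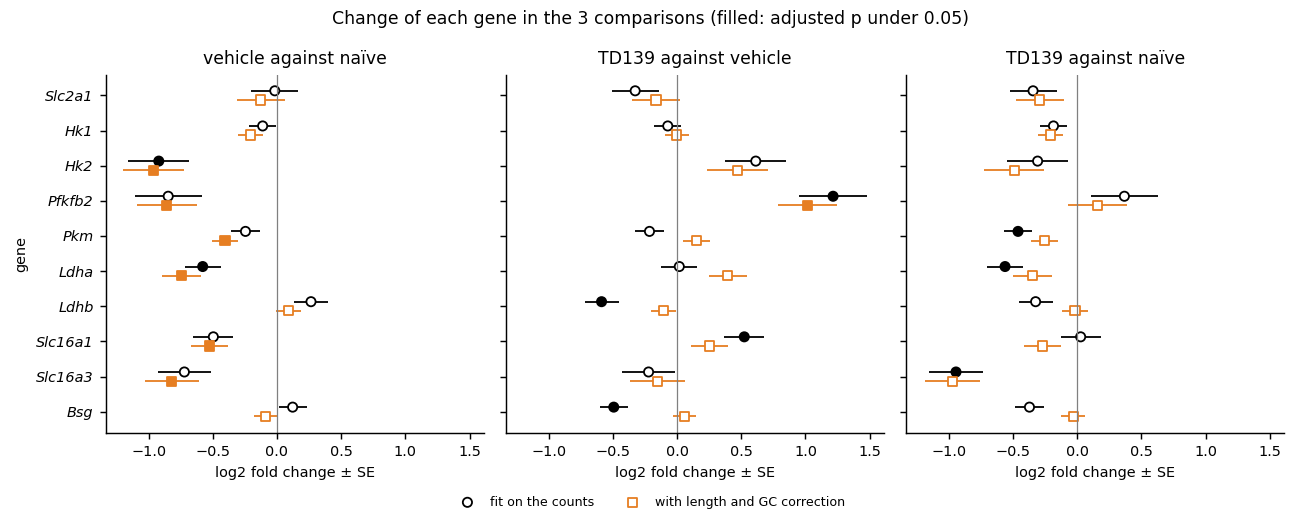
Log2 fold change ± SE (horizontal axes) of the 10 genes in the 3 comparisons of 3 mice with 3 mice, from the fit on the counts (black circles) and with the length and GC correction (orange squares). Filled symbols have an adjusted p-value under 0.05. With the correction, 6 genes are filled on the side of lower values in vehicle-treated against naïve mice, and Pfkfb2 is the filled gene in TD139-treated against vehicle-treated mice.

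Slc2a1 encodes the glucose transporter GLUT1, through which the retina and the retinal pigment epithelium take up most of their glucose. It lies at chr4:119108711-119137983 on the plus strand of GRCm38 and has 10 exons. Its level was 269, 246 and 326 CPM in the naïve mice, 232, 370.0 and 229.6 CPM in the vehicle-treated mice, and 199, 226 and 239 CPM in the TD139-treated mice. The naïve and vehicle-treated mice overlapped, and the highest value of all was that of vehicle-treated mouse 2, the mouse with the lens and pigment epithelium transcripts. The log2 fold change of vehicle-treated against naïve mice was −0.02 ± 0.18 (SE, adjusted p = 0.962), and −0.28 without that mouse (adjusted p = 0.213). The part of those transcripts in the value was not tested. TD139-treated mice differed by −0.33 ± 0.18 from vehicle-treated mice (adjusted p = 0.183), and this became −0.06 without vehicle-treated mouse 2 (adjusted p = 0.757).

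Hexokinases trap glucose in the cell, and the isoenzymes HK1 and HK2 both dock to mitochondria. Hk1 (chr10:62268855-62379908, minus strand, 18 exons) is expressed throughout neural tissue. Its levels in naïve mice were 1126, 1283 and 1453 CPM. Vehicle-treated mice had 1191, 1155 and 1229 CPM, and TD139-treated mice 1129, 1150 and 1121 CPM. The TD139-treated mice lay just below all vehicle-treated mice, by −0.07 ± 0.10 on the log2 scale (adjusted p = 0.61). Between vehicle-treated and naïve mice, which overlapped, the log2 fold change was −0.11 ± 0.10 (adjusted p = 0.513).

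Hk2 (chr6:82725025-82774454, minus strand, 18 exons) is in the retina the hexokinase of photoreceptors. In naïve mice it was expressed at 335, 282 and 488 CPM, against 187, 204 and 192.5 CPM in vehicle-treated mice. The latter lay close together and below every naïve mouse, 1.89-fold lower on average (log2 fold change −0.92 ± 0.24, adjusted p = 0.0466). This call was close to the threshold and was lost when any 1 of the 6 naïve or vehicle-treated mice or TD139-treated mouse 3 was left out, with adjusted p-values of 0.0715 to 0.134 and log2 fold changes of −1.07 to −0.66. It was also lost with the replicate block (adjusted p = 0.0556), without a filter on low counts (0.063) and with the first run alone (0.0513). TD139-treated mice had 203, 376 and 313 CPM. Mice 2 and 3 were within the naïve range, whereas mouse 1 was within the vehicle-treated range. The log2 fold change against vehicle-treated mice was 0.61 ± 0.24 (adjusted p = 0.0716), and without TD139-treated mouse 1 it was 0.83 (adjusted p = 0.00893). Over the 9 fits with a mouse left out it was 0.41 to 0.83 and was called in 2, with adjusted p-values up to 0.251. Corrected for length and GC content, it was 0.47 ± 0.23 (adjusted p = 0.174). TD139-treated mouse 1 also stood apart from mice 2 and 3 in its markers. Its microglia markers summed to 93.2 CPM against 44.7 and 36.8 CPM, Müller glia markers to 8347 against 5985 and 6050 CPM, reactive glia genes to 470.2 against 237 and 265 CPM and endothelial markers to 536.5 against 297 and 282 CPM, and its rod markers were the lowest of the group (75570 against 93590 and 85070 CPM). The part of these in the values of Hk2, and of Pfkfb2, Slc16a1 and the ratio of Ldha to Ldhb below, where the same mouse lay nearest to the vehicle-treated mice, was not tested.

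Pfkfb2 (chr1:130689182-130729253, minus strand, 16 exons) encodes a bifunctional enzyme that makes and removes the fructose bisphosphate that activates phosphofructokinase, and so sets the pace of glycolysis. The naïve mice expressed it at 449, 559 and 761 CPM. In the vehicle-treated mice it was at 341, 369.5 and 273 CPM, below all naïve mice, and in the TD139-treated mice at 485, 887 and 912 CPM, above all vehicle-treated mice. TD139-treated mice 2 and 3 exceeded every naïve mouse, whereas mouse 1 lay within the naïve range. Vehicle-treated mice were 1.80-fold below naïve mice (log2 fold change −0.85 ± 0.26), with an adjusted p-value of 0.0765 that did not pass and that was 0.0156 without TD139-treated mouse 1. TD139-treated mice were 2.32-fold above vehicle-treated mice (log2 fold change 1.22 ± 0.26, adjusted p = 0.0107). Leaving out TD139-treated mouse 2 moved this to 1.09 with an adjusted p-value of 0.0504. Corrected for length and GC content, the increase was 1.02 ± 0.23 (adjusted p = 0.0195), and the decrease in vehicle-treated mice was −0.86 ± 0.23 (adjusted p = 0.0336). Yod1, which overlaps Pfkfb2 on the opposite strand, had 1807 counts over all mice, beside 137035 for Pfkfb2. The protein-coding gene Gm29427 overlaps Pfkfb2 on the same strand and has no row in the counts, so its part was not tested. Against naïve mice, TD139-treated mice differed by 0.37 ± 0.26 (adjusted p = 0.378).

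Pkm (chr9:59656368-59679375, plus strand, 11 exons) gives rise to the M1 and M2 forms of pyruvate kinase by alternative splicing, which counts per gene do not separate. It was the most abundant member, with 3564, 2859 and 2801 CPM in naïve, 2433, 2769 and 2578 CPM in vehicle-treated and 2228, 2152 and 2325 CPM in TD139-treated mice. The 3 groups did not overlap, with naïve mice highest and TD139-treated mice lowest in CPM. The log2 fold change was −0.25 ± 0.11 in vehicle-treated against naïve mice (adjusted p = 0.178) and with TD139 relative to vehicle −0.21 ± 0.11 (adjusted p = 0.15). Between TD139-treated and naïve mice it was −0.46 ± 0.11 (adjusted p = 0.0458). That call was lost without naïve mouse 1 or 2, without any 1 vehicle-treated mouse or without TD139-treated mouse 2 or 3, at adjusted p-values of 0.0536 to 0.17. With the correction for length and GC content, the decrease of Pkm in vehicle-treated mice was −0.41 ± 0.10 (adjusted p = 0.0222), the difference of TD139-treated from vehicle-treated mice turned to 0.15 ± 0.10 (adjusted p = 0.3), and in TD139-treated against naïve mice it was −0.25 ± 0.10 (adjusted p = 0.297).

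Lactate dehydrogenase is built from A and B subunits, and the A subunit favours the making of lactate. Ldha (chr7:46841475-46855627, plus strand, 8 exons) was at 1597, 1265 and 1583 CPM in naïve mice. All vehicle-treated mice were lower, at 861, 1151 and 965 CPM, and all TD139-treated mice were lower too, at 869, 1033 and 1110 CPM. Both light-exposed groups overlapped fully. Vehicle-treated mice were 1.49-fold below naïve mice (log2 fold change −0.58 ± 0.14, adjusted p = 0.0345), and this call was lost without any 1 naïve mouse or without vehicle-treated mouse 1 or 3 (adjusted p = 0.078 to 0.122). TD139-treated mice were 1.48-fold below naïve mice (−0.56 ± 0.14, adjusted p = 0.0478), a call that held in 1 of the 9 fits with a mouse left out, without naïve mouse 3, and otherwise had adjusted p-values of 0.0539 to 0.173. TD139-treated and vehicle-treated mice differed by 0.02 ± 0.14 (adjusted p = 0.934). Corrected for length and GC content, this difference was 0.40 ± 0.15 (adjusted p = 0.0779). With the same correction, the decreases against naïve mice were −0.74 ± 0.15 with vehicle (adjusted p = 0.0132) and −0.35 ± 0.15 with TD139 (adjusted p = 0.327). Ldha has processed copies in the genome whose reads the counting could have split, so its level is uncertain to that extent.

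Ldhb (chr6:142490249-142507957, minus strand, 8 exons) encodes the B subunit, which favours the use of lactate. The naïve mice had 224, 189 and 172 CPM, and the vehicle-treated mice had 230.1, 222 and 250.5 CPM. These groups overlapped, and the log2 fold change was 0.26 ± 0.13 (adjusted p = 0.218). In TD139-treated mice the level was 185, 148 and 134 CPM, below every vehicle-treated mouse, with a log2 fold change of −0.59 ± 0.13 (adjusted p = 0.00977). This call was lost without TD139-treated mouse 2 or 3, at adjusted p-values of 0.0508 and 0.0504. Ldhb has the shortest transcript of the members, 1304 bases, and with the correction for length and GC content the change was −0.10 ± 0.10 (adjusted p = 0.458).

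Slc16a1 (chr3:104638668-104658462, plus strand, 5 exons) encodes MCT1, which carries lactate and pyruvate together with a proton. It was at 259, 222 and 279.6 CPM in naïve mice and at 166.5, 205 and 168 CPM in vehicle-treated mice, which all lay below the naïve mice. TD139-treated mice 2 and 3 reached 301.5 and 276 CPM, whereas mouse 1, at 198 CPM, lay within the vehicle-treated range. Vehicle-treated mice were 1.41-fold lower than naïve mice (log2 fold change −0.50 ± 0.16, adjusted p = 0.0722). TD139-treated mice were 1.44-fold higher than vehicle-treated mice, with overlap (log2 fold change 0.52 ± 0.16, adjusted p = 0.0258). Leaving out vehicle-treated mouse 1 or 3, or mouse 2 or 3 of the TD139 group, took this call away, with adjusted p-values of 0.0757 to 0.114. With the correction for length and GC content the increase was 0.25 ± 0.14 (adjusted p = 0.221) and the difference of vehicle-treated from naïve mice −0.52 ± 0.14 (adjusted p = 0.0301).

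Slc16a3 (chr11:120948480-120960868, plus strand, 6 exons) encodes MCT4, the lactate exporter of strongly glycolytic cells, and was the lowest member. The naïve mice had 88.7, 68.2 and 119.7 CPM. The vehicle-treated mice had 47.6, 57.3 and 62.9 CPM, and the TD139-treated mice 38.5, 48.5 and 56.9 CPM. Every light-exposed mouse, with either treatment, lay below every naïve mouse. TD139-treated mice were 1.92-fold below naïve mice (log2 fold change −0.94 ± 0.21, adjusted p = 0.0432), which was lost without mouse 1 or 2 of the naïve group, mouse 2 of the vehicle group or mouse 2 or 3 of the TD139 group (adjusted p = 0.0555 to 0.163). Vehicle-treated mice were 1.65-fold below naïve mice (−0.72 ± 0.21, adjusted p = 0.0602). The groups with light overlapped and differed by −0.22 ± 0.21 (adjusted p = 0.425). In TD139-treated against naïve mice, the fits with 1 mouse left out gave log2 fold changes of −1.11 to −0.70. Corrected for length and GC content, that change was −0.97 ± 0.21 (adjusted p = 0.119). For vehicle-treated against naïve mice it was −0.82 ± 0.21 (adjusted p = 0.0292).

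Bsg (chr10:79704491-79711969, plus strand, 8 exons) encodes basigin, which accompanies MCT1 and MCT4 to the membrane and whose retinal form binds the rod-derived cone viability factor. Naïve mice expressed it at 1122, 957 and 934 CPM and vehicle-treated mice at 995, 1199 and 1085 CPM, with overlap (log2 fold change 0.12 ± 0.11, adjusted p = 0.498). TD139-treated mice had 822.5, 776 and 731 CPM and lay below all mice of both other groups. The log2 fold change was −0.49 ± 0.11 against vehicle-treated mice (adjusted p = 0.00936) and −0.37 ± 0.11 against naïve mice (adjusted p = 0.0626). The first of these held with any 1 mouse left out, at adjusted p-values of 0.00615 to 0.0482. It did not hold with the correction for length and GC content, where it turned to 0.06 ± 0.09 (adjusted p = 0.679). The transcript of Bsg has 1526 bases.

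Members with short and long transcripts differed in TD139-treated against vehicle-treated mice, but Ldha among the short ones (0.02) and Hk1 (−0.07) and Slc16a3 (−0.22) among the long ones did not follow this. The 3 members below 2000 bases, Ldhb, Bsg and Ldha, had a median log2 fold change of −0.49 and the 5 members from 4000 bases on had 0.52, where 3841 short and 5196 long genes had −0.35 and 0.28. In vehicle-treated against naïve mice, short and long genes over the whole table had medians of 0.05 and −0.05, whereas the members had 0.12 and −0.72. The correction shifted the median of all genes to −0.10 in vehicle-treated against naïve mice and to 0.07 in TD139-treated against vehicle-treated mice. Beside these, the corrected member medians were −0.46 and 0.10, the shift of all genes included. Where a length trend comes from cannot be read from counts per gene, and its part in the changes of the members was not tested beyond this correction.

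**Figure D3:**
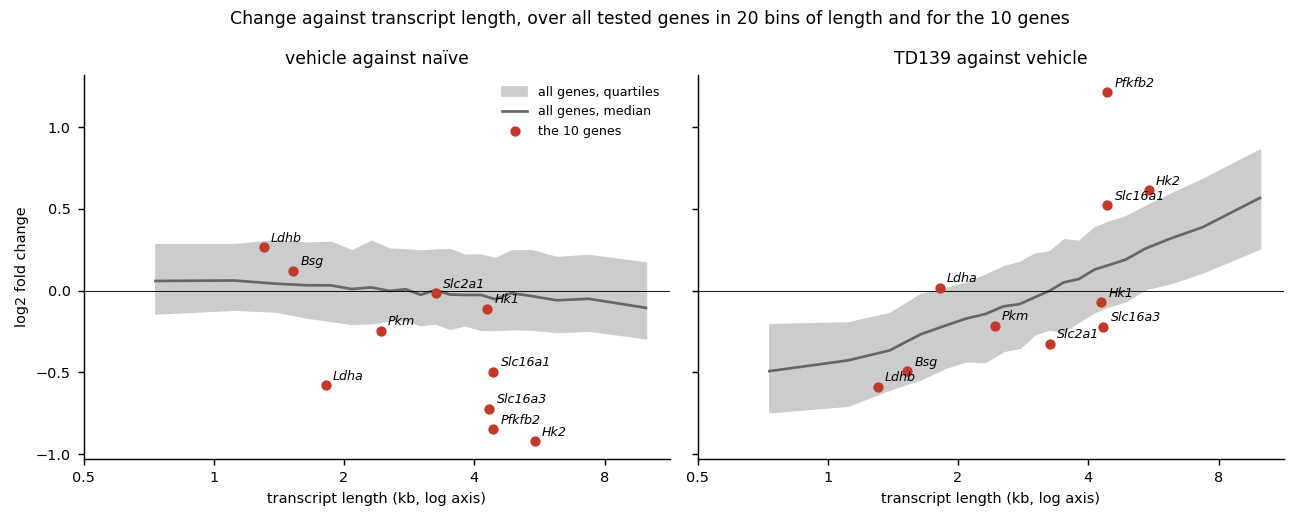
Log2 fold change (vertical axes) against transcript length in kb (horizontal log axes) for vehicle-treated against naïve and TD139-treated against vehicle-treated mice. The grey line and band are the median and the range between the quartiles of all genes in 20 bins of length, and red points are the 10 genes. On the left side of the right panel, Ldhb and Bsg lie within the band, below the median line. In the same panel, Pfkfb2, Hk2 and Slc16a1 lie above the band, Ldha lies at its upper edge, and Slc2a1 and Slc16a3 lie below it.

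Ratios within a mouse do not depend on the scaling between libraries, and they are given per kb of transcript and without a test. The ratio of Hk2 to Hk1 was 0.231, 0.17 and 0.26 in naïve mice. With vehicle it was 0.122, 0.137 and 0.122, and with TD139 0.14, 0.254 and 0.217. Every vehicle-treated mouse was thus below every mouse of the other groups. The ratio of Ldha to Ldhb was 5.13, 4.81 and 6.61 in naïve mice and 2.69, 3.73 and 2.77 in vehicle-treated mice, again without overlap. In TD139-treated mice it was 3.38, 5.0 and 5.94, with mouse 1 within the vehicle-treated range and mice 2 and 3 within the naïve range. For Slc16a3 to Slc16a1, the ratio was 0.35, 0.314 and 0.437 in naïve, 0.292, 0.285 and 0.383 in vehicle-treated and 0.199, 0.164 and 0.211 in TD139-treated mice. Here the TD139-treated mice stood apart on the low side, while the other groups overlapped, and both transcripts have nearly the same length (4335 and 4426 bases). Their GC content differs (56.6 and 42.9%), and TD139 fold changes also followed GC content over all genes. That Spearman correlation was −0.375 against vehicle-treated and −0.42 against naïve mice. With the length and GC correction, Slc16a3 and Slc16a1 changed by −0.15 and 0.25 with TD139 relative to vehicle, beside −0.22 and 0.52 without it. The part of GC content in this ratio was not tested. Slc16a1 relative to its chaperone Bsg was 0.0795, 0.08 and 0.103 in naïve, 0.0577, 0.059 and 0.0533 in vehicle-treated and 0.0829, 0.134 and 0.13 in TD139-treated mice. The vehicle-treated mice were lowest, and the lengths of Slc16a1 and Bsg differ (4426 and 1526 bases).

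**Figure D4:**
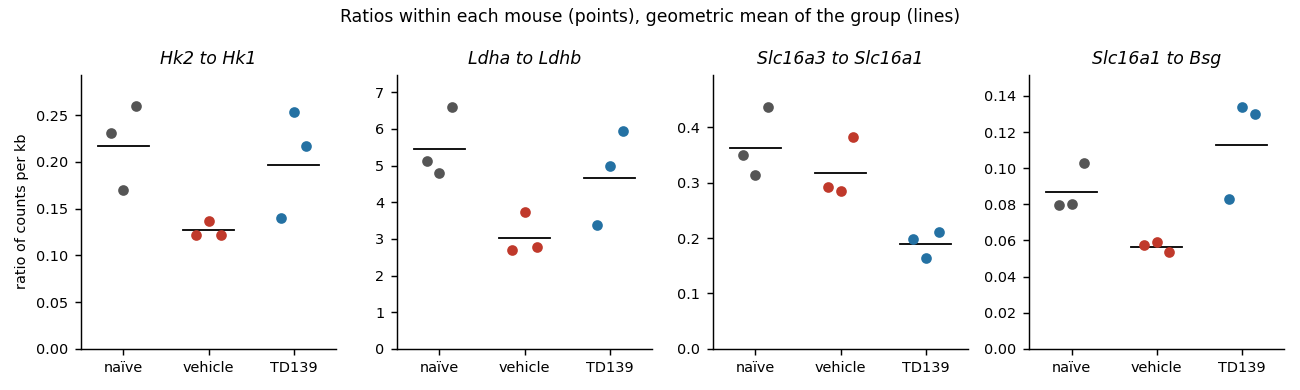
Ratios of counts per kb between members within each mouse (vertical axes from 0) in naïve, vehicle-treated and TD139-treated mice. Points are mice and lines are the geometric mean of the group. All vehicle-treated mice are below all others in Hk2 to Hk1 and Slc16a1 to Bsg, in Ldha to Ldhb they overlap with TD139-treated mouse 1, and all TD139-treated mice are below all others in Slc16a3 to Slc16a1.

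Of 21 other enzymes of glycolysis, 18 passed the filter on low counts. In vehicle-treated mice 0 of these fell and 1 rose against naïve mice, where the list had a median log2 fold change of 0.06. The gene that rose, named after its values were seen, was Hk3, a hexokinase of myeloid cells, by 2.51 (adjusted p = 0.0235) from 0.307, 0.603 and 0.587 CPM to 2.22, 2.26 and 4.10 CPM. After the correction Pfkl, Pfkp, Aldoa and Pgam1 were lower, at −0.45, −0.33, −0.46 and −0.40, also named after their values were seen. In TD139-treated against vehicle-treated mice 7 enzymes were lower and 0 higher, with a list median of −0.34. The most abundant of the 7 were Gapdh (−0.40), Tpi1 (−0.50), Gpi1 (−0.34), Aldoc (−0.59), Pgk1 (−0.33) and Bpgm (−0.43), and the seventh was Hk3 (−2.50). With the correction 2 were lower, Aldoc and Hk3, and 1 higher, Pgam1, and the list median was −0.05. Against naïve mice 4 were lower with TD139, with a list median of −0.29, and 0 with the correction.

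Copies and single mice limit this list. Gapdh, Pkm and Ldha have many processed copies, and their levels are uncertain to that extent. Eno1 was listed at 0.24 ± 0.05 CPM (SD, n = 3) in naïve mice and was not tested, although enolase 1 is active in every cell, so this value is not read as its expression. Gapdhs and Pklr were also below the filter. Pgam2, a muscle enzyme named after its values were seen, was at 30.8 CPM in vehicle-treated mouse 2 and at 0.393 to 1.06 CPM in the other 8 mice, and Eno3 was at 120.1 CPM in that mouse and at 37.0 to 51.3 CPM in the others.

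**Figure D5:**
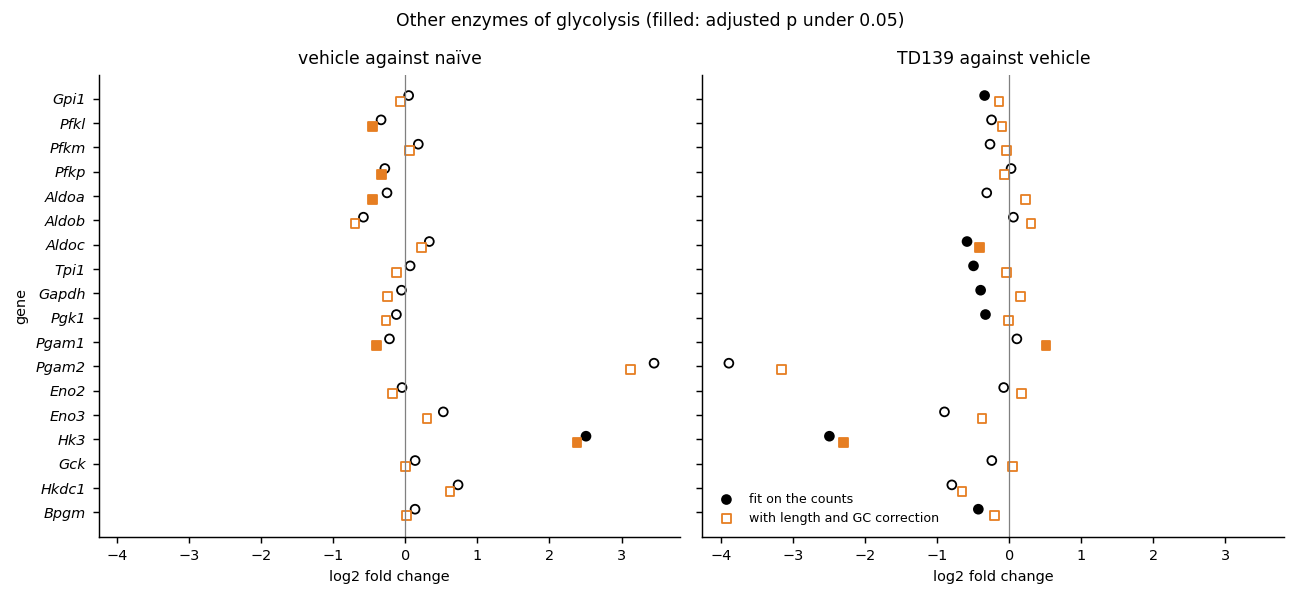
Log2 fold change (horizontal axes) of the 18 other enzymes of glycolysis that were tested, in vehicle-treated against naïve and TD139-treated against vehicle-treated mice, from the fit on the counts (black circles) and with the length and GC correction (orange squares). Filled symbols have an adjusted p-value under 0.05. Hk3 is filled on the right for vehicle-treated mice and on the left for TD139-treated mice, by both fits.

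Among the 13 tested genes of other glucose, lactate and pyruvate transport, 1 fell and 2 rose in vehicle-treated against naïve mice. Nxnl1, which fell, encodes the rod-derived cone viability factor, a partner of basigin that stimulates glucose uptake by cones. Its level was 546, 473 and 429 CPM in naïve, 311, 373 and 222 CPM in vehicle-treated and 381, 499.5 and 469 CPM in TD139-treated mice. The vehicle-treated mice were below all others, at −0.68 against naïve mice (adjusted p = 0.0456), and TD139-treated mice were 0.58 above them (adjusted p = 0.0315). The glucose transporter gene Slc2a12 rose in vehicle-treated mice by 1.35 (adjusted p = 0.0359), and Emb, which encodes embigin, a relative of basigin, by 0.45 (adjusted p = 0.0313). With TD139, Slc2a4, Slc16a8 and Mpc2 were lower than in vehicle-treated mice, at −1.83, −1.51 and −0.47. With length and GC content corrected, none of these 3 was called (adjusted p = 0.0755, 0.13 and 0.549), and Mpc2 was at 0.075. The corrected fit kept Nxnl1 in both directions (−0.78 and 0.77). It also called Nxnl2, a relative of Nxnl1, lower in vehicle-treated than in naïve mice (−0.79, adjusted p = 0.0313) and higher with TD139 than with vehicle (0.91, adjusted p = 0.0197), and Slc2a12 lower with TD139 (−1.02, adjusted p = 0.0414), of which Nxnl2 was named after its values were seen. Slc2a4, the insulin-regulated transporter of muscle, and Slc16a8, the lactate transporter MCT3 of the retinal pigment epithelium, were both highest in vehicle-treated mouse 2, at 10.8 and 26.9 CPM. Against naïve mice, 1 gene was higher with TD139, Slc2a13 (0.71, adjusted p = 0.042), named after its value was seen, and it was not called with the correction (0.35, adjusted p = 0.205).

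Of 11 regulators of glycolysis and of pyruvate use, 1 fell in vehicle-treated mice and 2 rose with TD139. Tigar, whose product removes the activator of phosphofructokinase, was at 69.7, 65.3 and 67.3 CPM in naïve, 43.5, 53.0 and 44.1 CPM in vehicle-treated and 54.9, 78.4 and 71.8 CPM in TD139-treated mice. It was lower in all vehicle-treated mice, by −0.53 against naïve mice (adjusted p = 0.0382), and TD139-treated mice lay above them by 0.55 (adjusted p = 0.0123). Pdp2, a phosphatase that activates pyruvate dehydrogenase, was 0.80 above vehicle-treated mice with TD139 (adjusted p = 0.0337), and with the correction 0.55 (adjusted p = 0.0761). The 5 genes of pyruvate dehydrogenase itself had 0 calls in the 3 comparisons. With the correction, Pdhb and Pdhx were lower in vehicle-treated than in naïve mice (adjusted p = 0.0453 and 0.0374), and Pdhb was higher with TD139 than with vehicle (adjusted p = 0.0232), named after their values were seen. Of 7 genes of the pentose phosphate pathway, 0 were called in vehicle-treated against naïve mice and Pgls, Pgd and Tkt were lower with TD139 than with vehicle, at −0.80, −0.36 and −0.60. With the length and GC correction, Tkt alone of these was called (−0.44), and Rpia (−0.51) and the regulator Pfkfb4 (−0.34), named after their values were seen, were lower in vehicle-treated than in naïve mice.

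Glycogen is the store from which glia can draw glucose. In vehicle-treated mice, 3 of 8 glycogen genes rose against naïve mice, Pygl by 0.84, Gbe1 by 0.74 and Gyg by 0.73, whose products break down, branch and prime glycogen. All 3 were lower with TD139 than with vehicle, at −0.92, −0.54 and −0.59, and Pygm was lower too (−0.43). After the correction Pygl, Gbe1 and Gyg kept their calls in both comparisons, and Ugp2, named after its value was seen, was lower with TD139 than with vehicle (−0.42). A list of 14 tested genes held genes that respond to hypoxia-inducible factor 1 and Hif1a, the gene of the factor itself. Of these, Ddit4 fell in vehicle-treated mice by −0.64 (adjusted p = 0.0235). Hif1a, the 1 gene of the list called with TD139 relative to vehicle, was higher by 0.61 (adjusted p = 0.0312). Hif1a was not called with the correction (0.26, adjusted p = 0.175), whereas Ddit4 was (−0.85, adjusted p = 0.0137). The corrected fit also called Ankrd37 (−0.53), Ndrg1 (−0.48) and Kdm3a (−0.56) lower in vehicle-treated than in naïve mice. With TD139 relative to vehicle it called Ddit4 higher (0.79, adjusted p = 0.0143) and Bnip3l lower (−0.31, adjusted p = 0.0233). These were named after their values were seen. The list had medians of −0.31 and 0.06 in these comparisons. Without the correction, Ankrd37 was lower with TD139 than in naïve mice (−0.60, adjusted p = 0.0432).

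Markers of other cell types were counted in the same way. Of 9 cone markers, 8 bipolar, 7 amacrine and 7 ganglion cell markers, 0 were called in vehicle-treated against naïve mice, and 1, 3, 0 and 0 were higher and 0, 1, 2 and 1 lower in TD139-treated against vehicle-treated mice. Summed pigment epithelium markers were 129 to 290.0 CPM in naïve, 245 to 517 CPM in vehicle-treated and 146 to 214 CPM in TD139-treated mice, with 0 calls in the first comparison and 2 of 7 lower in the second. Endothelial markers had 0 of 8 calls and then 1 lower, and the tested lens genes (8), monocyte markers (2) and red cell genes (1) had 0. Müller glia markers summed to 5997 to 6581 CPM in naïve, 10210 to 10710 CPM in vehicle-treated and 5985 to 8347 CPM in TD139-treated mice, so their rise ran opposite to Hk2, Pfkfb2 and Ldha, and its part in their decrease was not tested.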

How the data were processed

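Poly(A) RNA of whole retinas from 9 mice was sequenced on 2 flow cells. Per the labels and the study's methods, the authors counted reads on genes with BaseSpace RNA Express and deposited whole-number counts without scaling, 1 table per mouse and flow cell. The submitters' processing notes name mm10, and the annotation used for counting is not given in the sources used here. For each mouse, the counts of its runs were added. Rows for reads outside genes (16.5 to 22.8%) or ambiguous between genes (0.303 to 0.471%) were left out. Of the symbols, 98.31% were joined to GENCODE M21 (GRCm38) for position, length and GC content of the longest coding transcript.

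The 3 groups were fitted together with edgeR 4.0.16 in R 4.3.3 (filterByExpr, TMM, robust quasi-likelihood F test). The Benjamini-Hochberg method adjusted the p-values over 15196 genes, and a gene was called under 0.05. The SE is the size of the log2 fold change divided by the square root of F. Each mouse is 1 replicate, and 3 against 3 mice cannot give an exact permutation p under 0.1, so none is given. The correction fitted splines (4 degrees of freedom) of length and GC content to each mouse, as an offset. Other alternatives were DESeq2 1.42.0, limma 3.58.1 voom with sample quality weights, RLE or library size alone, no or another filter (CPM of at least 1 in 3 mice), only the groups compared, the replicate number as a block, single runs and each mouse left out in turn. Steps were tested on simulated data.

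The members, the lists and the alternatives were chosen with earlier results of these data known. Every member is named. Of each pathway list, called genes are named, at most the 6 most abundant, and of marker lists at most 3, except where stated. Some genes that meet this rule are not reported here. Lists covered the other glycolytic enzymes, regulators, transport, pyruvate dehydrogenase, the pentose phosphate pathway and glycogen. They also covered Hif1a with genes responsive to hypoxia-inducible factor 1, and markers of 13 cell types or states. Same-numbered mice of different groups were not paired: of 9 pairs, 2 had deviations that correlated over 0.1 (range −0.259 to 0.282). Promoter sequences are those of RefSeq for GRCm38.p6.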

Additional observations from a re-analysis of the deposited data

How the results depend on the processing

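Of the 30 log2 fold changes of the members, 12 stayed on their side of the threshold under every alternative run, as did 539 of 630 values, 21 of which were not called and changed sign. With 1 mouse left out, 224 values stayed on their side, 39 lost the call and 7 gained it. The log2 fold change of Bsg in TD139-treated against vehicle-treated mice, called lower, turned to 0.057 with the length and GC correction and to 0.056 with this correction and the replicate block. In vehicle-treated against naïve mice, where 2 members were called lower, the number was 5 with DESeq2, 1 without a filter, 4 with only these groups, 1 with the first run alone, 6 with the length and GC correction, 6 with that correction and the replicate block, and 0 to 5 with 1 mouse left out (5 without TD139-treated mouse 1). Other glycolytic enzymes, 1 higher and 0 lower there, were 2 and 2 with DESeq2 and 3 and 2 with limma voom. With the second run alone 0 were higher, with the length and GC correction 4 were lower and with the block added 2. With 1 mouse left out 0 to 2 were higher and 0 to 1 lower. In TD139-treated against vehicle-treated mice, where 2 members were higher and 2 lower, the numbers were 1 and 0 with the length and GC correction, 1 and 0 with the block added, and 0 to 3 and 1 to 2 with 1 mouse left out (0 higher without TD139-treated mouse 2). Of the enzymes, 0 higher and 7 lower, there were 1 and 2 with the correction, 1 and 2 with the block added, 11 lower with DESeq2, and 3 to 8 lower with 1 mouse left out. In TD139-treated against naïve mice, 0 members were higher and 3 lower, and with limma voom 1 and 5. Over all genes, limma voom called 2995 higher and 2472 lower in this comparison and DESeq2 1429 and 1157, beside 413 and 362. With only these groups, 1 of 14787 genes was called. The number of members lower was 0 with only these groups, 0 with the replicate block, 0 with the correction, 0 with both, and 0 to 4 with 1 mouse left out. Enzymes, 4 lower there, were 7 with DESeq2, 9 with limma voom, 0 with only these groups, 0 with the block, 0 with the correction, 0 with both, and 0 to 6 with 1 mouse left out. In all these cases the cause was not tested.

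Mice that share a replicate number were not pairs. The replicate block called 2 members lower in vehicle-treated against naïve mice, Ldha and Slc16a3 (adjusted p = 0.0335) but not Hk2 (0.0556), and 2 higher and 2 lower in TD139-treated against vehicle-treated mice. Over all genes it called 559 genes higher and 341 lower instead of 746 and 439 in the first comparison, and 0 instead of 775 in TD139-treated against naïve mice. Scaling by library size alone moved the median of all genes to 0.094 and −0.102 in the first comparisons and the share of calls that were higher from 63.0 to 77.6% and from 51.6 to 39.0%, and from 53.3 to 65.4% in TD139-treated against naïve mice. The length and GC correction moved the first shares to 31.7 and 64.4%. Calls of limma voom over all genes were 1821 higher and 1512 lower for vehicle-treated against naïve mice, beside 746 and 439. With 3 mice a group and calls near the threshold, a member that was not called may still differ.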

Other observations

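The genes whose log2 CPM over the 9 mice was most like that of a member are given for the members with the highest and lowest fold changes, out of 13093 genes that averaged 50 counts or more. Pfkfb2, highest in TD139-treated against vehicle-treated mice, was most alike to Slc4a7 (Pearson r = 0.995), C030046E11Rik (0.994) and Rp1l1 (0.993). For Hk2, lowest in vehicle-treated against naïve mice, these were Fam175b (0.967), Zdhhc6 (0.967) and Dock8 (0.965). For Ldhb, lowest in TD139-treated against vehicle-treated mice, they were 2210013O21Rik (0.991), Gstm5 (0.987) and Tcta (0.985). These values are picked from many, the mice fall into 3 groups, and the libraries share the length trend, so no p is given.

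The 10 members held between 0.636 and 0.903% of the TMM-scaled counts of a mouse. Both runs of a mouse differed by a chi-square per degree of freedom of 1.63 to 1.80 over genes.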
